A study of Mus musculus with 7 samples.

Results

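A small population of neurons in the mouse cortex at E18.5, late in gestation, was picked out by transcripts of Nefm, Kitl, Sphkap, Chodl and Dsc3. Of 50191 deposited cell barcodes, 23005 had at least 500 detected genes and at most 10% mitochondrial counts, and 314 of these were members. A member had at least 4 transcript counts summed over the 5 genes, at least 1 of them from Dsc3, Kitl or Chodl. It had no count of Gad1, Gad2, Eomes or Reln, and at most 2 counts summed over the layer 6 genes Hs3st4, Tle4, Nxph3, Syt6 and Foxp2. These measured levels chose the members, so every comparison of levels between members and other barcodes below is a description without a test. Genotype was not part of the rule. Genotype effects were tested within members and for a difference from other barcodes. The members were chosen with earlier results of these data known.

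Single cells of papain-dissociated cortex were captured on Seq-Well arrays, in which each cell shares a small well with a barcoded bead and each transcript is counted by its unique molecular identifier (UMI). A male Emx1CreERT2;Ash1lfl/fl was mated with a female Ash1lfl/fl, tamoxifen was given at 100 mg/kg at E10.5, and 1 litter was collected at E18.5. The 4 mutants (embryos 10, 11, 12 and 17) were Emx1CreERT2;Ash1lfl/fl and the 3 controls (14, 15 and 16) were Ash1lfl/fl, so that all 7 embryos carried the floxed alleles and were exposed to tamoxifen, and the controls lacked the Cre. Emx1 is active in progenitors of the dorsal telencephalon, which limits the deletion to the excitatory neurons and glia born there, and Ash1l encodes a histone H3 lysine 36 methyltransferase. With 1 litter, the p-values measure the spread between littermates only, and the labels give neither sex nor batch. Only the mutants carried the Cre, so its effects cannot be told apart from those of Ash1l loss.

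Neurofilaments are the intermediate filaments of axons. The light (Nefl), medium (Nefm) and heavy (Nefh) chains assemble with alpha-internexin (Ina), and neurons that send thick axons over long distances are known for high levels of them. Excitatory neurons of the cortex divide into upper-layer cells that project within the cortex, layer 5 cells that project below it, marked by Bcl11b and Fezf2, and layer 6 cells that project to the thalamus. Kitl encodes the ligand of the receptor tyrosine kinase KIT, Sphkap a scaffold that binds protein kinase A, Chodl a membrane lectin and Dsc3 a desmosomal cadherin.

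Sequence upstream of the start was taken for genes that define the members or stood highest in them, so that the letters can be read beside the values. Of 7 such genes looked up in RefSeq promoters of build GRCm38.p6, 3 had a 250-base window that overlapped no annotated exon, and these are printed 5′ to 3′ along the gene's strand, with the last base next to the start. They lie at chr16:78930698-78930947 on the plus strand (Chodl), at chr1:83408201-83408450 on the minus strand (Sphkap) and at chr1:84696222-84696471 on the minus strand (Dner). Capitals mark CAGATG, a form of the E-box that proneural factors are known to bind, and TATANA, a form of the TATA box. Each was searched on both strands.
Chodl: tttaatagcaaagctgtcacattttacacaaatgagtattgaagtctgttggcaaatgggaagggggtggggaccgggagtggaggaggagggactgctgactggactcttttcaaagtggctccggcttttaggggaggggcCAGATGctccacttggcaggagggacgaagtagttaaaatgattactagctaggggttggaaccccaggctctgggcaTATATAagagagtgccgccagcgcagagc
Sphkap: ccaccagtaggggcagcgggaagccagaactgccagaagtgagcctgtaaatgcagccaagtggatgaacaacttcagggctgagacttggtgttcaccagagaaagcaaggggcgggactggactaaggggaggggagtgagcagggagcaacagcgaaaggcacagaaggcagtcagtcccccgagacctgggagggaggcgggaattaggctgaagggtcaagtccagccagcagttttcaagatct
Dner: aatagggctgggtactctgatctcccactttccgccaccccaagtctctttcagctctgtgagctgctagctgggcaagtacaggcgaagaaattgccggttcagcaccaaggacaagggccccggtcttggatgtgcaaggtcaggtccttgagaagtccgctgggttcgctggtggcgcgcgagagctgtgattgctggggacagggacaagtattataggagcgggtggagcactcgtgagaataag
The Chodl window held 1 CAGATG, 107 bases before the start, and 1 TATANA, 29 bases before it. The Sphkap and Dner windows held neither. Among 32851 RefSeq promoter windows of the same length, 14.4% held CAGATG and 22.6% held TATANA, so neither match is rare. G and C made up 52.0% of the Chodl window, 57.6% of that of Sphkap and 56.8% of that of Dner.

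The name of the population held for some of its genes more than for others. Kitl was detected in 273 of the 314 members (86.9%), Nefm in 246 (78.3%), Nefl in 209 (66.6%), Sphkap in 203 (64.6%), Chodl in 120 (38.2%) and Dsc3 in 71 (22.6%). Dsc3 was thus absent from the counts of most members. Levels below are UMIs per 1000000 (CPM), computed from the UMIs summed over the members of an embryo. Mean Kitl was 569 CPM in members and 51.8 CPM in the other kept barcodes. Nefm stood at 710 against 106, Sphkap at 382.5 against 46.5, Chodl at 134 against 12.1 and Dsc3 at 116 against 3.18 CPM. These 5 contrasts were set by the choice. The 78 members with exactly 4 summed counts had 233 CPM of Nefl, which was not summed, and the 143 barcodes that met all other criteria with 3 counts had 160. The 236 members with 5 or more had 799 CPM. Alcam followed the same order, at 162, 186 and 448 CPM, while Trps1 stood at 61.9, 53.8 and 180 (Trps1 was not higher just inside the threshold than just outside).

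Members were cells of high counts in every library. Their median UMIs per barcode were 7119, 3676, 2556 and 3619 in mutants 10, 11, 12 and 17 and 6662, 3004 and 3957 in controls 14, 15 and 16, which was 2.06 to 4.14 times the median of the library's kept barcodes. A threshold on summed counts favours such barcodes. Doublets were not removed, and their part in the results was not tested. The mutants' mean of 4242 ± 1986 (SD, n = 4) and the controls' of 4541 ± 1897 (n = 3) differed by less than the spread (exact permutation test, two-sided p = 0.771, where 0.0286 is the smallest possible with 4 against 3). The members' summed UMIs ran from 68112 (mutant 12) to 389768 (control 16), so that 1 UMI was worth 2.57 to 14.7 CPM, and values of mutant 12 are the least precise. The libraries held 7083225 to 11859209 UMIs each. The 7 libraries shared 185 deposited barcodes over their 21 pairs, of which 78 were kept and none was a member.

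Markers of other cells were low or absent in members, partly by the choice. The GABAergic list summed to 8.26 to 176 CPM over the 7 embryos, against 382 to 685 in the other barcodes, with Dlx6, Lhx6 and Sst at 0. Cajal-Retzius genes summed to 7.95 to 33.6 CPM against 453 to 886, with Trp73 and Ebf3 at 0. Of the endothelial and mural genes, Cldn5, Pecam1, Kdr, Rgs5, Kcnj8 and Igfbp7 were at 0, and the list summed to at most 10.3 CPM. Microglial genes reached at most 2.57 CPM, with 7 of 8 at 0. Some lists were not low in every embryo. Radial glial genes summed to 747 to 3524 CPM in members, with Gfap at 0, and to 2896 to 3736 in the other barcodes, and mutant 12 was the highest. Erythroid genes summed to 39.8 to 2644 CPM in members and passed the other barcodes in mutant 17 (2644 against 1707). Oligodendrocyte precursor genes passed them in mutant 12 (161 against 55.6 CPM) and control 15 (74.3 against 44.5), with Sox10 at 0. Cycling genes summed to 74.3 to 555 CPM against 593 to 835. The part of such transcripts in the genotype values was not tested. Among excitatory genes, Neurod6, a transcription factor of postmitotic cortical neurons, stood at 256 to 518 CPM in members and Bcl11b at 175 to 344. These levels alone do not set members apart from other barcodes, and the glutamatergic list is compared below. Slc17a7, the vesicular glutamate transporter of mature cortical neurons, was at 7.95 to 44.0 CPM.

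**Figure D1:**
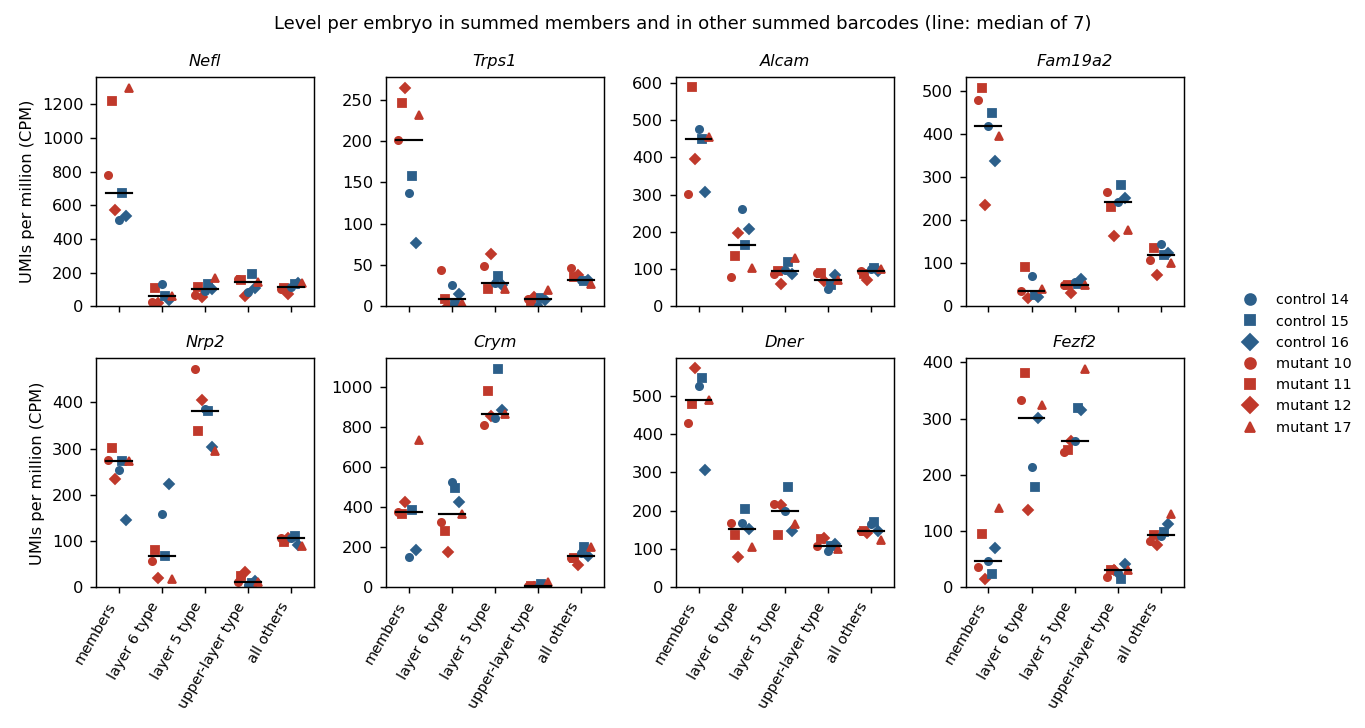
Level of 8 genes in CPM (vertical axis) in the summed members, 3 like neuron groups and all other kept barcodes, with 1 point for each of the 7 embryos (red mutants, blue controls) and a line at the median. Nefl, at a mean of 798 CPM in members, and Trps1, at 188 CPM, stood above the like groups and the other barcodes, while Crym and Nrp2 were higher in the layer 5 type.

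Beyond the genes of the rule, Nefl, Alcam, Trps1 and Fam19a2 were among the genes highest in members relative to other barcodes. Nefl stood at 777, 1217, 573 and 1297 CPM in mutants 10, 11, 12 and 17 and at 511, 672 and 536 CPM in controls 14, 15 and 16. In the other kept barcodes of the same embryos it ran from 71.8 to 138 CPM, far under the lowest member value. The median over embryos of the log2 ratio, computed after adding 10 CPM to each level, was 2.81 for Nefl and ran from 1.90 to 3.38. Nefl lies inside the annotated span of Nefm on the opposite strand (chr14:68083863-68089095 within chr14:68082590-68124846, GENCODE annotation of GRCm38). The sources used here do not say whether counting used strand, so reads of the pair cannot be told apart there, and Nefm was a gene of the rule. Pooled over embryos, Nefl stood at 832 CPM in the 246 members with a Nefm UMI. In the 68 members without one it stood at 115 CPM, within the range of the other kept barcodes. The high Nefl of members thus went with Nefm, through which many were chosen. Alcam (397 CPM with Nefm and 445 without), Trps1 (157 and 165) and Fam19a2 (416 and 411) did not follow Nefm in this way. Of 4709 genes with at least 50 CPM in either set, 36 (0.764%) were higher in members in all 7 embryos with a median log2 ratio of at least 1, and 68 (1.44%) were lower. The median over all 4709 genes was near 0.

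Genes of several kinds followed Nefl in that order. Alcam, an immunoglobulin adhesion molecule of growing axons, averaged 425 ± 100 CPM (SD, n = 7 embryos, range 303 to 588) in members and 93.5 in the others, a log2 ratio of 2.09. Trps1, a GATA-type zinc finger repressor, stood at 188 ± 67.2 against 34.5 (2.03). Fam19a2, a small secreted protein of neurons, stood at 404 ± 93.2 against 115 (1.82). In each embryo the members held more of all 3 genes than the other barcodes. Dner, a neuronal Notch-binding transmembrane protein, averaged 477 against 149 CPM (1.61), and St6galnac5, a sialyltransferase, 152 against 47.5 (1.47). The semaphorin receptor Nrp2 reached 251 against 101 CPM (1.23), and the guidance ligand Slit2 71.0 against 26.2 (1.2). The glutamate receptor Grm5 stood at 142 against 51.3 CPM (1.29), the activin receptor Acvr2a at 347.5 against 136 (1.31) and the nuclear receptor Nr4a2 at 149.5 against 61.3 (1.39). Lower in members were the interneuron genes Dlx1 (13.7 against 86.0 CPM, log2 ratio -3.01), Erbb4 (1.18 against 71.6, -2.91) and Nrxn3 (10.4 against 65.6, -2.14). Tnc, a matrix gene of radial glia, was at 117 against 332 CPM (-2.06), and Top2a, a topoisomerase of dividing cells, at 50.4 against 151 (-1.83).

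By gene list, the axon cytoskeleton stood higher in members than in the other barcodes as a whole, and less so against like neurons. Of 17 neurofilament and axon cytoskeleton genes tested, 16 had a positive log2 ratio, 3 met the call (Nefm of the rule, Nefl and Gap43) and the median was 0.61. The median of that list was 0.12 against the layer 6 type, with 10 of 17 genes positive, 0.17 against the layer 5 type and 0.37 against the upper-layer type. Its summed level was 16223 to 23139 CPM in members and 14071 to 20681 CPM in the layer 6 type, so the ranges overlapped. Gap43, a growth cone protein, averaged 907 against 423 CPM (1.12), Stmn2, a tubulin-binding protein, 2284 against 1314 (0.73), and Ina 726 against 391 (0.84). The heavy chain Nefh was at 3.80 against 2.32 CPM and peripherin (Prph) at 4.07 against 2.21, both near the value of 1 UMI. The synapse list had a median of 0.52 with 2 of 22 genes higher and 1 lower, and the ion channel list 0.52 with none of 9 called. The cadherin list, with 2 of 7 higher (Dsc3 among them) and 1 lower, had a median of 0.24. KIT signalling had a median of -0.03 over 14 genes, with Kitl called higher and the adaptor Grb10 lower (31.8 against 67.1 CPM, -1.20). The receptor Kit itself was at 0 to 41.3 CPM. Protein kinase A and its anchors had a median of 0.10 over 12 genes, with Sphkap alone called. The axon guidance list had 2 of 19 genes higher and 3 lower, with a median of 0.10. The glutamatergic list was not raised in members, with 3 of 9 genes positive, 0 called and a median of -0.05. Its median was -0.26 against the layer 6 type, 0.08 against the layer 5 type and -0.61 against the upper-layer type. Radial glial genes had a median of -1.10 with 5 of 10 lower, and cycling genes -1.81 with 3 of 5 lower.

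Against 3 like groups of excitatory neurons, the members had their own order of genes in each comparison. The layer 6 type (329 barcodes), layer 5 type (1055) and upper-layer type (1088) were defined by at least 4 summed counts of layer genes and the same zero genes, so those layer genes differ by construction. Against the layer 6 type 59 of 4755 genes (1.24%) were higher in members and 127 (2.67%) lower. Against the layer 5 type the numbers were 42 (0.918%) and 34 (0.743%) of 4576, and against the upper-layer type 62 (1.34%) and 34 (0.736%) of 4618. Nefl averaged 64.8, 105 and 130.1 CPM in the 3 groups, against 798 in members. Trps1 averaged 14.7, 34.9 and 9.42 CPM, against 188. Kitl, of the rule, averaged 293 CPM in the layer 6 type, against 569 in members, a median log2 ratio of 0.63. In the layer 5 and upper-layer types it averaged 25.7 and 26.3 CPM. Alcam stood at 97.2 CPM in the layer 5 type and 72.4 in the upper-layer type, against 425 in members.

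What set the members apart depended on the group. Compared with the layer 6 type they held more Fam19a2 (404 against 43.4 CPM, log2 ratio 3.04), Syt4, a synaptotagmin of dense-core vesicles (886 against 202, 2.05), and the nuclear receptor Nr2f2 (85.1 against 16.4, 1.84). They held less Grik3, a kainate receptor subunit (11.3 against 268 CPM, -3.67), Ppp1r1b, a phosphatase inhibitor (7.46 against 121, -3.20), and the adenylate cyclase Adcy1 (109 against 692, -2.61). Compared with the layer 5 type they held less of the neuropeptide Nts (26.7 against 209.7 CPM, -3.70), of the guidance ligand Sema3c (59.0 against 445, -3.21) and of Fezf2 (61.2 against 289.7, -2.26). They held more Ptprt, a receptor phosphatase (132 against 28.2 CPM, 2.19), and Wnt7b, a Wnt ligand (188 against 45.9, 1.92). Compared with the upper-layer type they held more Crym, a thyroid hormone binding protein (375 ± 191 against 9.44 CPM, 4.27), Nrp2 (251 against 15.9, 3.71) and Islr2, an axonal membrane protein (886 against 189.7, 2.16). They held less Unc5d, a netrin receptor that helped to define that group (35.1 against 209.8 CPM, -1.97), and less of the POU transcription factor Pou3f2 (103 against 363, -1.66). In list counts, 5 of 12 upper-layer genes were higher in members than in the layer 6 type and 5 of 12 higher than in the layer 5 type, while 6 of 14 were lower than in the upper-layer type. Of the layer 5 list, 3 of 7 genes were lower than in the layer 5 type.

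Within the members, barcodes that carried Dsc3 or Chodl differed from those chosen through Kitl alone. Of the 314, 153 carried Kitl without Dsc3 or Chodl, 64 Kitl and Chodl, 34 Kitl and Dsc3, 26 Chodl alone, 22 all 3 genes, 8 Dsc3 and Chodl and 7 Dsc3 alone. The 161 with Dsc3 or Chodl were set beside the 153 with Kitl alone, a comparison chosen after the data were seen and given as a description. Of 4720 genes, 26 (0.551%) were higher in the first set in all 7 embryos with a median log2 ratio of at least 1, and 38 (0.805%) were lower. Median UMIs per barcode were 4532 with Kitl alone, 4346.5 with Chodl and 3497 with Dsc3.

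Nefl and Cntn2 were among the genes higher in the Dsc3 or Chodl set. Nefl averaged 1135 ± 498 CPM there (SD, n = 7, range 686 to 1915) and 348 ± 92.3 CPM with Kitl alone (range 214 to 481), and the ranges did not overlap. Cntn2, an axonal immunoglobulin adhesion molecule, averaged 1420 ± 279 CPM against 549 ± 160, again without overlap (981 to 1803 against 344 to 751). Nrp1, a semaphorin receptor, stood at 618 against 270 CPM (median log2 ratio 1.34), St6galnac5 at 233 against 74.9 (1.71) and Fst, the activin antagonist follistatin, at 61.5 against 14.3 (1.80). Nefm, of the rule, stood at 956 against 403 CPM (1.3).

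The Kitl set was higher in another group of genes. Rorb, a nuclear receptor known from layer 4, averaged 2.89 CPM (range 0 to 7.90) with Dsc3 or Chodl and 124 CPM (71.2 to 182) with Kitl alone, without overlap. Gucy1a3, a subunit of soluble guanylate cyclase, averaged 24.3 CPM (0 to 64.8) against 410 (110 to 694), also without overlap. Enc1, an actin-binding protein of neurons, averaged 256 CPM (98.1 to 411) against 1094 (591 to 1429), with a median log2 ratio of -2.14. Zeb2, a zinc finger transcription factor, averaged 77.4 CPM (13.6 to 174) against 430 (169 to 627), with a ratio of -2.53. The dynein subunit Dync1i1, of the axon cytoskeleton list, stood at 37.3 against 249 CPM (-2.57) and Adcy1 at 43.6 against 194 (-2.02). Of the layer 5 list, Fezf2 stood at 21.0 against 120 CPM (-2.14) and Ldb2 at 23.2 against 140 (-1.91). Crym (452 against 313 CPM with Kitl alone) and Trps1 (236 against 144) did not reach the call, with ratios of 0.69 and 0.82, and the Crym ratio ran from -0.40 to 1.98 over embryos.

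**Figure D2:**
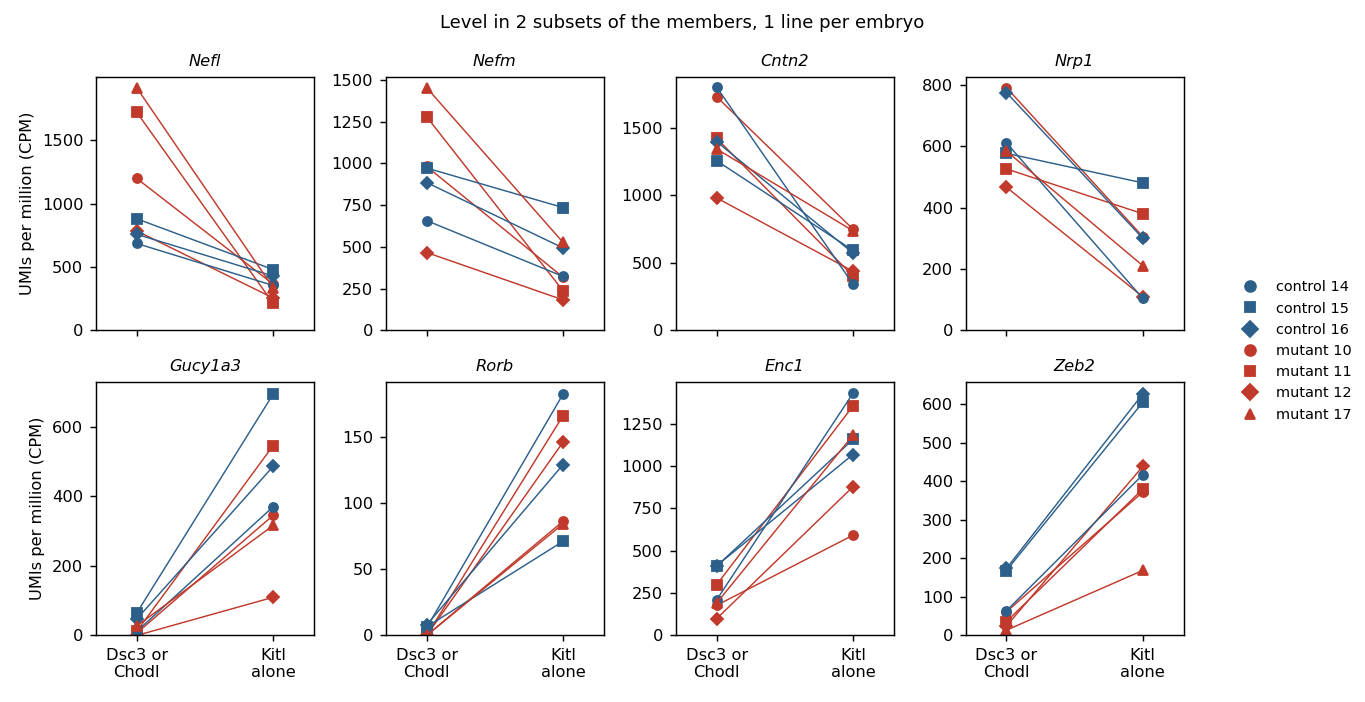
Levels of genes in members with Dsc3 or Chodl and in members with Kitl alone, in CPM, with 1 point per set and a line for each of the 7 embryos (red mutants, blue controls). Nefl, Nefm, Cntn2 and Nrp1 stood higher with Dsc3 or Chodl, and Rorb, Gucy1a3, Enc1 and Zeb2 higher with Kitl alone.

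Members took a smaller mean share of the mutant cortices, but the groups overlapped. There were 41 members of 2114 kept barcodes in mutant 10 (1.94%), 30 of 3153 in mutant 11 (0.951%), 20 of 3714 in mutant 12 (0.539%) and 29 of 3641 in mutant 17 (0.796%). Controls had 47 of 2203 in embryo 14 (2.13%), 70 of 3895 in embryo 15 (1.80%) and 77 of 4285 in embryo 16 (1.80%). Mutant 10 lay among the controls and the other 3 mutants below them. Counting error alone gave 95% Clopper-Pearson intervals of 0.329% to 0.830% for mutant 12 and 1.57% to 2.83% for control 14. Means were 1.06% ± 0.613 (SD, n = 4) and 1.91% ± 0.194 (n = 3), and the exact permutation test gave a two-sided p of 0.114. Mutant 10 and control 14 had the fewest kept barcodes and the deepest members; without both, the means were 0.762% and 1.80% and the exact permutation p was 0.1, the smallest possible there.

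Thinning every barcode to 1000 UMIs changed the result of the test. At that depth 8844 mutant barcodes remained and 3778 shallower ones were left out, and 7754 control barcodes remained and 2629 were left out. The thinned shares were 0.415%, 0.434%, 0.200% and 0.427% in mutants 10, 11, 12 and 17 and 0.532%, 0.850% and 0.473% in controls 14, 15 and 16, resting on 32 and 48 thinned members. All mutants then lay below all controls (means 0.369% and 0.619%, exact permutation p = 0.0286, the smallest possible). Over 100 random thinnings the mutant mean was lower in each and the mean shares were 0.328% ± 0.0990 and 0.599% ± 0.216, but p was under 0.05 in 29 and ran from 0.0286 to 0.743, with a median of 0.0857. Thinned to 1500 UMIs the means were 0.930% and 1.27% (exact permutation p = 0.229), and to 2000 UMIs 1.43% and 1.88% (exact permutation p = 0.371). The mutant mean was lower at each depth, and the p passed 0.05 at 1000 UMIs only.

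The like groups also had lower mean shares in mutants. The layer 6 type had 1.10% of the mutant and 2.00% of the control barcodes (p = 0.0857 by an exact permutation test), the layer 5 type 4.03% and 5.55% (p = 0.0571) and the upper-layer type 4.20% and 6.54% (p = 0.371). Among members and these 3 groups together, members made up 9.65% of the mutant and 12.4% of the control barcodes (exact permutation p = 0.171).

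**Figure D3:**
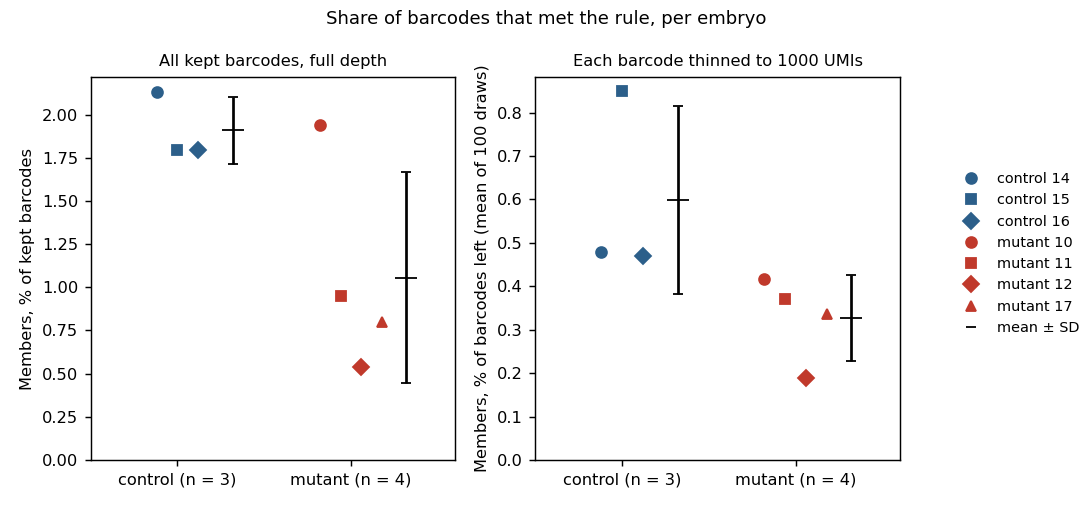
Share of members among kept barcodes in percent, for each of 4 mutants and 3 controls, as counted (left) and as the mean of 100 thinnings of every barcode to 1000 UMIs (right), with mean and SD beside each group. As counted mutant 10 lies among the controls at 1.94%, and over the thinnings the mutant means reach 0.416% and the control means start at 0.469%.

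Ash1l itself was measured at 101, 103, 191 and 57.8 CPM in the members of mutants 10, 11, 12 and 17 and at 129, 152 and 198 CPM in those of controls 14, 15 and 16, from 7 to 77 UMIs each. Mutant 12 lay among the controls. The log2 fold change, mutant over control, was -0.60 with a standard error of 0.26, and the adjusted p of edgeR's quasi-likelihood test with Benjamini-Hochberg adjustment was 0.819. Counts over the whole gene do not isolate the floxed exons, so they check the deletion weakly.

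No gene passed the genotype test within members. Of 5908 genes tested with edgeR's quasi-likelihood test on sums per embryo, 0 (0.0%) had an adjusted p under 0.05, as by DESeq2 and by limma voom with quality weights. At an unadjusted p under 0.05 edgeR held 330 genes (5.59%), 162 higher (2.74%) and 168 lower (2.84%) in mutants, DESeq2 137 and limma voom 391. The 4 mutants lay below the 3 controls without overlap for 200 genes (3.39%) and above them for 150 (2.54%).

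Several genes of smallest p were also among those that differed between the sets of members. Zeb2 stood at 219, 151, 191 and 74.3 CPM in mutants 10, 11, 12 and 17 and at 250, 396 and 480 CPM in controls 14, 15 and 16. All mutants lay below all controls, with a log2 fold change of -1.15 ± 0.24 (SE) and an edgeR adjusted p of 0.12. Enc1 stood at 387, 652, 411 and 578 CPM in mutants and at 852, 799 and 854 in controls, again without overlap (-0.72 ± 0.17, edgeR adjusted p = 0.137). Gucy1a3 stood at 178, 191, 44.0 and 140 CPM against 201, 393 and 344 (-1.0 ± 0.24, edgeR adjusted p = 0.137). The splicing factor Luc7l3, which was not called between the sets (median log2 ratio -0.35), stood at 172, 127, 132 and 182 against 239, 366 and 277 (-0.87). In all of these the mutants lay below the controls.

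Nefl and Crym had higher means in mutants. Nefl, at the levels given above, had a log2 fold change of 0.78 ± 0.19 and an edgeR adjusted p of 0.137, and mutant 12 lay among the controls. Few members carried much of that count. The share of members with a Nefl UMI was 70.7%, 66.7%, 40.0% and 69.0% in mutants and 74.5%, 72.9% and 59.7% in controls, while the richest member held 64 of 231 Nefl UMIs in mutant 10, 44 of 153 in mutant 11 and 42 of 157 in mutant 17. In controls the richest member held at most 20. Crym stood at 377, 366, 426 and 735 CPM in mutants and at 151, 387 and 185 in controls, where control 15 lay among the mutants (0.99 ± 0.24, edgeR adjusted p = 0.137). Trps1 stood at 202, 246, 264 and 231 CPM against 137, 158 and 77.0, all mutants above all controls (0.91 ± 0.23, edgeR adjusted p = 0.209).

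The make-up of the members by set overlapped between genotypes. Kitl alone marked 51.2%, 30%, 50.0% and 41.4% of members in mutants 10, 11, 12 and 17 and 46.8%, 50.0% and 57.1% in controls (means 43.1% ± 9.80 and 51.3% ± 5.29, exact permutation p = 0.286), and its part in the genotype values was not tested. Within the Dsc3 or Chodl set, pooled over embryos of a genotype, Nefl stood at 1430 CPM in mutants and 773 in controls, and within the Kitl set at 325 and 420. By embryo, mutant 12 (785 CPM) lay below control 15 (881) in the first set. Zeb2 stood at 61.3, 35.9, 24.5 and 13.6 CPM in mutants and 64.0, 168 and 174 in controls in the Dsc3 or Chodl set. These did not overlap, but they rest on 14 UMIs over the mutants and 59 over the controls. Mutant 10 and control 14 were nearly equal there. In the Kitl set Zeb2 stood at 372, 380, 439 and 169 CPM against 417, 605 and 627, and mutant 12 lay above control 14. Enc1 stood at 177, 299, 98.1 and 190 CPM against 209, 408 and 411 in the first set, where mutant 11 lay above control 14. In the Kitl set it stood at 591, 1353, 877 and 1181 CPM against 1429, 1157 and 1067, and mutants 11 and 17 lay above controls 15 and 16. Crym, pooled, stood at 525 against 360 CPM and in the Kitl set at 355 against 143, and its embryos overlapped in both sets. The pooled values have no replicate error.

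**Figure D4:**
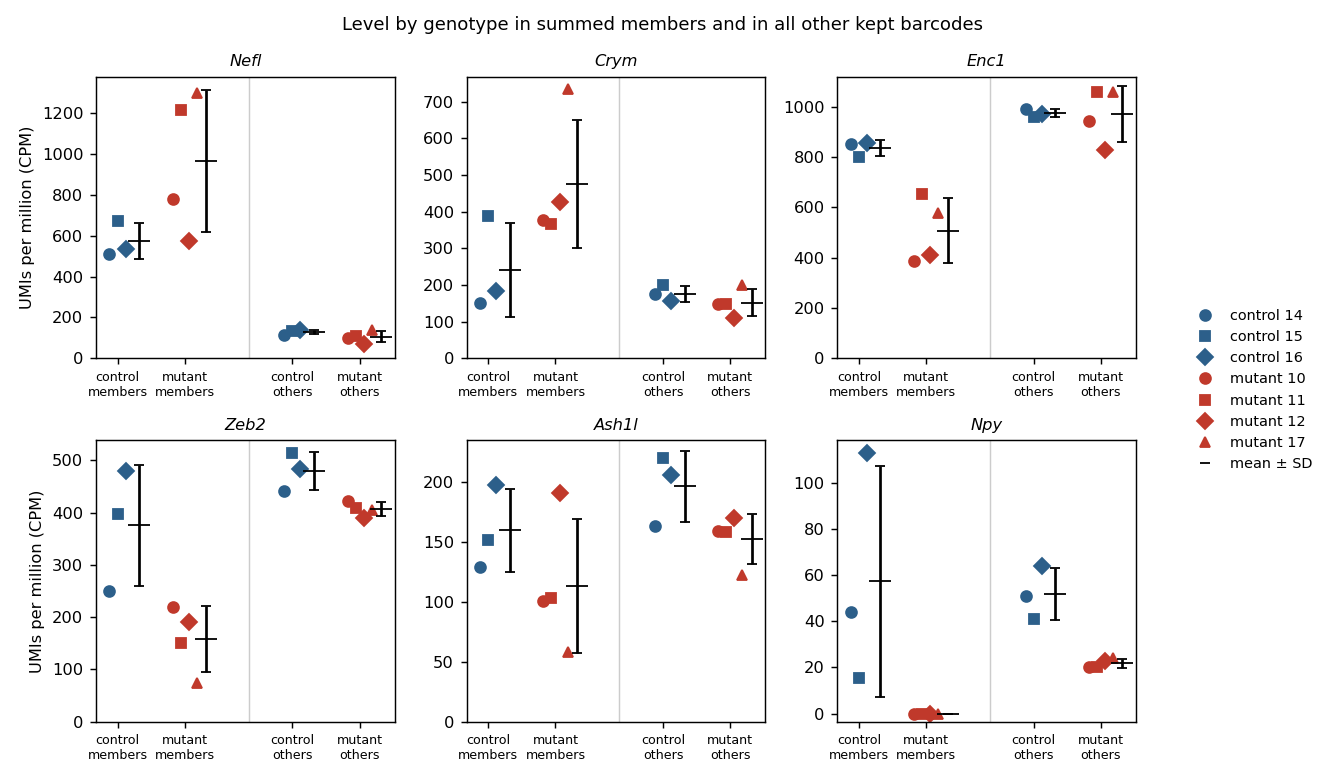
Levels in CPM of 4 genes that differed in genotype effect, of Ash1l and of Npy, for each of 3 controls (blue) and 4 mutants (red), in members (left of the line) and in all other kept barcodes (right), with mean and SD. In members, Enc1 and Zeb2 lie lower in every mutant than in every control, Nefl, Crym and Ash1l overlap, and Npy is at 0 in the 4 mutants.

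The genotype effect differed between members and the other barcodes for 5 of 5908 genes (0.0846%), by the interaction term of edgeR's quasi-likelihood test over both sums per embryo. At an unadjusted p under 0.05 there were 294 (4.98%). Nefl had the smallest adjusted p. Its log2 fold change was 0.78 in members and -0.31 in the others, a difference of 1.02 ± 0.14 (SE, edgeR adjusted p = 3.38e-05). Crym had 0.99 in members and -0.23 in the others, a difference of 1.17 ± 0.20 (edgeR adjusted p = 8.14e-04). Enc1 had -0.72 in members and -0.02 in the others, a difference of -0.78 ± 0.13 (edgeR adjusted p = 7.29e-04). Zeb2 had -1.15 and -0.26, a difference of -0.94 ± 0.21 (edgeR adjusted p = 0.0452). Nefm, the other gene of the 5, chose the members, so its difference of 0.78 (0.26 in members and -0.58 in the others) is a description and supports nothing. Nefl was not summed, but its reads cannot be told apart from those of Nefm where the genes overlap. Whether the choice of members bore on the difference of Nefl was not tested, so its p-value is no independent support.

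Against the 3 like groups in place of all other barcodes, Enc1 (-0.80 ± 0.14, edgeR adjusted p = 0.00309) and Crym (1.02 ± 0.19, edgeR adjusted p = 0.00767) still differed, and they were the only 2 of 5908 genes (0.0339%). Nefl had a difference of 0.70 there with an adjusted p of 0.143, and Zeb2 -0.86 with 0.211. In the layer 5 type, where Crym helped to define the barcodes, Crym stood at 809, 978, 854 and 864 CPM in mutants and 846, 1088 and 885 in controls. In the layer 6 type all mutants (326, 281, 178 and 364 CPM) lay below all controls (528, 494 and 424). Enc1 in the upper-layer type ran from 1232 to 1429 CPM in mutants and from 1169 to 1389 in controls. The ranges overlapped for Crym in the layer 5 type and for Enc1 in the upper-layer type. The test takes a single dispersion per gene for sums over 20 to 77 members and over all other barcodes of an embryo, which can make its p-values for members too small.

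The genes of the rule did not pass the genotype test, and their levels in members are held up by the choice. The log2 fold changes were 0.91 for Dsc3, 0.43 for Kitl, 0.26 for Sphkap, 0.52 for Chodl and 0.26 for Nefm, with edgeR adjusted p from 0.80 to 0.930. Spr, sepiapterin reductase, one of the genes that differed in whole-cortex sums of these data, stood at 47.1, 63.6, 103 and 90.9 CPM in mutants and 19.3, 49.6 and 43.6 in controls (0.88, edgeR adjusted p = 0.828), with mutant 10 below control 15. Spr (chr6:85130176-85137766) lies close to Emx1 (chr6:85187438-85204462), the gene that the Cre allele is named for. For Spr, carrying that allele and the loss of Ash1l cannot be told apart. Emx1 had a log2 fold change of -0.02.

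Npy, a neuropeptide that also differed in whole-cortex sums, was at 0 UMIs in the members of all 4 mutants and at 16, 5 and 44 UMIs in those of controls 14, 15 and 16, which is 44.0, 15.5 and 113 CPM. It was too low for the fit over all genes. The exact permutation test on CPM gave a two-sided p of 0.0286, the smallest possible, for a gene chosen with its level in whole-cortex sums known. The 0 of 612179 UMIs in mutants set a limit of 3 counts or 4.90 CPM over the group, if UMIs were independent. That is 12.3-fold under the 65 of 1076367 in controls. It is no lower limit of the change, since those 65 came from 12 members. Without control 16 the ratio was 6.24-fold, from 21 UMIs, and without the richest member of control 16 it was 6.64-fold. By barcode, 0 of 120 mutant members and 12 of 194 control members (6.19%) held a UMI. Pooled over embryos of unlike depth and for counting error only, 0 allows a share of members with a UMI of up to 2.50%. In the other kept barcodes the share was 1.63% to 3.02% in mutants and 3.45% to 5.06% in controls, at lower depth, so free RNA from other cells could give part of the members' counts and its part was not tested. A single member of control 16 held 30 of the 65 UMIs, and without it the control values still lay above 0 (35.9 CPM in control 16, exact permutation p = 0.0286). Pooled by set, Npy stood at 94.6 CPM in control members with Kitl alone and at 13.3 with Dsc3 or Chodl. In the other barcodes it stood at 20.2, 20, 22.8 and 24.2 CPM in mutants and at 50.9, 41.1 and 63.8 in controls.

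By list, upper-layer and glutamatergic genes held more low than high values in mutant members at an unadjusted edgeR p under 0.05, where 162 of all 5908 genes were higher and 168 lower with a median log2 fold change near 0. Of 14 upper-layer genes 4 were lower and 0 higher, with a median of -0.43. Of 10 glutamatergic genes 4 were lower and 0 higher, with a median of -0.18, Neurod2, a transcription factor of excitatory neurons, at -0.60 (edgeR adjusted p = 0.606). Summed, the upper-layer list stood at 2288, 2266, 1909 and 1735 CPM in mutants 10, 11, 12 and 17 and at 2546, 2555 and 2535 in controls, and in the other barcodes it stood at 2264 to 2403 CPM in mutants and 2510 to 2574 in controls. Mutants lay below controls in both sets of cells.

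Genes of other lists stood on either side. Of 7 layer 5 genes 1 was higher (Crym) and 2 were lower, Ldb2 at -1.08 and the annexin partner S100a10 at -0.73 (edgeR adjusted p = 0.668 for each), with a list median of 0.02. Of 16 immediate early genes, which neuronal activity and dissociation are known to induce, 2 were higher and 3 lower, with a median of -0.11. Of 17 neurofilament and axon cytoskeleton genes 1 (Nefl) was higher and 1 lower (Dync1i1, -0.97, edgeR adjusted p = 0.231), with a median of -0.04. Of 14 KIT signalling genes 1 was higher (Kitl, of the rule) and 1 lower, Pik3r1, a regulatory subunit of PI3 kinase, at -0.68 (edgeR adjusted p = 0.432). Of 15 genes of protein kinase A and its anchors 1 was higher (Prkar2a, a regulatory subunit, 0.60, edgeR adjusted p = 0.80) and 0 lower. Both erythroid genes tested were higher at that p. The haemoglobin chain Hbb-bs had a log2 fold change of 2.40 (edgeR adjusted p = 0.137), and 1 member held 124 of its 126 UMIs in mutant 10 and 1 member 199 of 212 in mutant 17. Single members also held 26 of 34 in control 15 and 63 of 78 in control 16. Cycling genes had 2 of 3 higher, with Mki67, a proliferation marker, at 1.66 (edgeR adjusted p = 0.330). For Mki67 too, 1 member held 29 of the 41 UMIs in mutant 10, and mutant 17 had 0. Members with an Mki67 UMI numbered 2, 1, 4 and 0 in mutants 10, 11, 12 and 17. In controls 14, 15 and 16 they numbered 1, 5 and 5.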

How the data were processed

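Single-cell libraries of 7 embryonic cortices were used, 1 per embryo. The deposited values are UMI counts per gene and barcode that the authors made from reads aligned with STAR to mm10, per the submitters' processing notes; the counter and its settings are not stated in the labels or files. No per-sample column was left unmapped (0 others). The members and the 29 gene lists were chosen with earlier results of these data known.

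Barcodes with at least 500 genes and at most 10% mitochondrial counts were kept, and doublets were not removed. UMIs were summed per embryo over members, over each like group and over all other kept barcodes (8 list entries had no row). Levels were compared within an embryo as log2((CPM + 10)/(CPM + 10)) with no test, for genes of at least 50 CPM on either side; a call needed 7 of 7 embryos of like sign and a median of at least 1. Genotypes were compared with edgeR 4.0.16 (TMM, filterByExpr, quasi-likelihood F test, Benjamini-Hochberg over all genes tested, threshold 0.05), with R 4.3.3, and by exact two-sided permutation of single values (scipy 1.17.1). DESeq2 1.42.0 and limma 3.58.1 (voom with quality weights) were alternatives. The interaction fit had each embryo as a term. Procedures were tested on simulated data.

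Genes were named by rule: the 20 highest and 10 lowest against all others, the 10 highest and 5 lowest against each like group, the 15 of smallest genotype p, up to 3 per list, and fixed genes. Some genes that the rule names are not reported here. The comparison of members with Dsc3 or Chodl and with Kitl alone, and the genes named there, were chosen after the data were seen.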

Additional observations from a re-analysis of the deposited data

Results flagged for a closer look

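For 5 genes, 1 of them (Nefm) used to choose the members, the genotype effect in members differed from that in all other kept barcodes by the interaction term of edgeR's quasi-likelihood test. The differences of log2 fold changes were 1.02 for Nefl, 1.17 for Crym, -0.78 for Enc1, -0.94 for Zeb2 and 0.78 for Nefm. Nefl had a higher mean in 4 mutants than in 3 controls within members (log2 fold change 0.78) and a lower one in the other barcodes (-0.31), and Crym likewise (0.99 and -0.23). Enc1 was at -0.72 in members and -0.02 in the others, and Zeb2 at -1.15 and -0.26. The value of Nefm is a description only, and that of Nefl carries the limit of its overlap with Nefm. None of the 44 sets of 4 mutant values looked at was flagged by a rule on the largest gap as a share of the range. With 4 values that rule needs a gap of most of the range, so a sample can stand apart without being flagged. Among mutant members, Hbb-bs stood at 1751 CPM in mutant 17 and at 424, 39.8 and 29.4 CPM in mutants 10, 11 and 12.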

How the results depend on the processing

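Mutant minus control, the share of members was -0.250 percentage points after thinning to 1000 UMIs, where the exact permutation p was 0.0286. It was -0.343 at 1500 UMIs (exact permutation p = 0.229) and -0.450 at 2000 UMIs (p = 0.371). Leaving out each embryo in turn, the share thinned to 1000 UMIs differed by -0.322 to -0.134, the smallest difference without control 15 (exact permutation p = 0.267), and no p was under 0.0667, the smallest that 4 against 2 allows. The unthinned share differed by -1.15 to -0.680. The difference in median UMIs per member ran from -1258 to 761.5 and turned positive without mutant 12 (263) or control 14 (761.5).

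The count of genes past the edgeR threshold within members, 0 as reported, became 1 (Nefl) with at least 1000 detected genes or with at most 5% mitochondrial counts. Both fits also dropped mutant 12, which then had under 20 members, and leaving out mutant 12 alone gave the same single call. With a layer 6 sum of 0, mutant 12 was dropped too (14 members), and the count of genes stayed 0. It was 9 with at least 6 summed counts, where mutants 11, 12 and 17 were dropped and mutant 10 alone stood against 3 controls, so that its spread was assumed to be that of the controls. It was 17 with no filter on low counts. Leaving out each embryo gave 0 to 6 genes, 6 without control 14, and leaving out mutants 10 and 12 and control 14 together gave 3. In the fit of mutant 10 alone the log2 fold change was 0.093 for Ptn, -0.56 for Dsc3 and 0.093 for Gria2, each with the opposite sign, and this says nothing about the threshold itself. The 5 genes with a difference of genotype effects became 2 against the like groups and 3 to 6 without each embryo, 3 without control 16. Over 9 alternatives Enc1 stayed under an adjusted p of 0.05 in 9, Nefl and Crym in 8, Nefm in 4 and Zeb2 in 2. The 104 genes called against all other barcodes became 192 with a minimum of 20 CPM and 59 with at least 3 summed counts, and 96 to 118 without each embryo. The cause of these changes was not tested, beyond fewer embryos or members entering the fits. Without each embryo Npy differed by -78.4 to -29.7 CPM, with exact permutation p from 0.0667 to 0.1, the smallest these designs allow.

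No paired analysis was possible because the 2 groups share no replicate numbers. Member sums of 68112 to 389768 UMIs limit the precision, since 1 UMI was worth up to 14.7 CPM in mutant 12.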
